A study of Mus musculus with 2 samples.

Results

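The regions described here are the wide footprints found in both DNase-seq libraries of mouse embryonic liver. A wide footprint was a line of the deposited footprint list of a library that spanned at least 30 bp and overlapped a line of the other library's list by at least 50% of the length of each. The members were thus chosen by their measured width and overlap, which are described below without a test. The rule kept 16410 of 382071 lines, 6767 of 151079 in replicate 1 (4.48%, Wilson 95% interval 4.38 to 4.58) and 9643 of 230992 in replicate 2 (4.17%, interval 4.09 to 4.26). Lines of 7 to 12 bp found in both libraries by the same overlap, called narrow footprints, were the comparison, with 21764 lines in replicate 1 and 19349 in replicate 2. Both libraries came from liver of embryos aged 13.5 days on a C57BL/6N,129 background, labelled WT with A85 YAC, multiple YAC copy. A YAC is a yeast artificial chromosome, both libraries carry it, and the labels do not describe its insert or the sex of the embryos. The 2 biological replicates form 1 group without another condition, and although each has its own tissue sample they share 1 donor label. The intervals below are Wilson 95% intervals that cover counting error only. Overlapping lines and lines of the same peak are not independent.

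DNase I cuts DNA that nucleosomes leave exposed, and a protein bound within such an accessible site protects its bases, which leaves a stretch of fewer cuts called a footprint. CTCF, a zinc finger protein that stops loop extrusion by cohesin, covers a long stretch of DNA, and GC boxes bound by SP and KLF factors lie close together in many promoters. RNA polymerase III genes such as tRNA genes are held by the large factors TFIIIC, which binds the A box and the B box inside the gene, and TFIIIB, which sits just upstream of it. GATA factors, TAL1 and NFE2, which direct red cell development in the fetal liver, recognise short motifs.

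The sequences that the motif results rest on are printed 5′ to 3′ from the mm10 (GRCm38) reference, in lower case, each over the locus, which is the span that overlapping wide footprints of the 2 libraries cover together. The first set shows CTCF sites outside promoters, oriented by the strand of the core, where capitals mark the CTCF core and, in the long ones, also a 6-base upstream element that begins 17 bp before it. Both kinds are shown because they differ in how far the footprint reaches on the 5′ side.
Short, intron, nearest start Arrdc2, chr8:70844703-70844734, plus strand: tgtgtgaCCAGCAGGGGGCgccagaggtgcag
Short, intergenic near Ptma, chr1:86532534-86532566, minus strand: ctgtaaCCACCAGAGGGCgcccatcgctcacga
Short, intergenic near Bsg, chr10:79712598-79712630, plus strand: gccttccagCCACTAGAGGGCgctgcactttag
Long, intergenic near Ptma, chr1:86501758-86501804, plus strand: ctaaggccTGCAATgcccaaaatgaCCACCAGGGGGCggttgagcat
Long, intergenic near Rrp1b, chr17:32073494-32073540, minus strand: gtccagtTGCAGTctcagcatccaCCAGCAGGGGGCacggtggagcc
Long, intergenic near Ccdc8, chr7:16999839-16999883, minus strand: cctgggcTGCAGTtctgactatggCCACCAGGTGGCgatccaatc
The 3 long loci began 24 or 25 bp before the core and the 3 short ones 6 to 9 bp before it.

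Promoter loci are shown on the strand of the gene, because they hold motifs that were more frequent in wide than in narrow footprints. Capitals mark the GC box, the CREB palindrome, the NRF1 site or the ZBTB33 (Kaiso) site named on each line.
Nup107, SP GC box, chr10:117792857-117792892, minus strand: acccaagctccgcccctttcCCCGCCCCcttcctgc
Atp1b3, SP GC box, chr9:96364459-96364497, minus strand: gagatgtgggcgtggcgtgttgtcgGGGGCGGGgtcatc
Ube2h, CREB, chr6:30304550-30304588, minus strand: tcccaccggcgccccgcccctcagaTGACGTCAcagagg
Lrrc8a, CREB, chr2:30237654-30237686, plus strand: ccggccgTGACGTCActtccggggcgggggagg
Sltm, NRF1, chr9:70542638-70542684, plus strand: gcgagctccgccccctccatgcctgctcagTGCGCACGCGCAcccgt
Rab3gap2, NRF1, chr1:185204041-185204085, plus strand: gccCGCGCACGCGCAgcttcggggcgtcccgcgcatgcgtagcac
Mpc2, ZBTB33, chr1:165460555-165460589, plus strand: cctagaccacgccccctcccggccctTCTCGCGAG
Ncapg, ZBTB33, chr5:45669854-45669896, plus strand: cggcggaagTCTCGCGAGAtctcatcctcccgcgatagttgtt
The Ube2h and Lrrc8a lines also hold a GC box in their lower-case part, and unmarked KLF motifs occur in others, such as Mpc2. The locus of Sltm, an RNA-binding protein gene, lies 93 bp before its nearest start. Peak values of these 8 loci ran from 17.3 (Lrrc8a) to 29.8 (Nup107, a nuclear pore gene) in replicate 1 and from 15.5 to 24.2 in replicate 2 at the same loci.

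tRNA genes are shown in whole, each with its upstream wide footprint, since wide footprints stood at 2 places of these genes. Capitals mark GGTTCGA, the B box motif searched.
Serine tRNA gene n-TStga3, chr10:63429473-63429609, minus strand: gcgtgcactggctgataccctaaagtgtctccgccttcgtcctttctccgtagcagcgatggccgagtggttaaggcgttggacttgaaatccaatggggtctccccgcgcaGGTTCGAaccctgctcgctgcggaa
Arginine tRNA gene n-TRccg1, chr11:107012815-107012941, plus strand: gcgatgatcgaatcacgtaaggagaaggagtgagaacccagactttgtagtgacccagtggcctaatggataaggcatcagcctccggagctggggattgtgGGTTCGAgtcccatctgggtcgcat
In the serine tRNA gene, bases 53 to 134 of the printed run are the annotated gene. The upstream footprint covered bases 1 to 63 in replicate 1 and 4 to 54 in replicate 2, and the inner one covered 93 to 137 and 94 to 134. The arginine tRNA gene spans bases 52 to 124, with upstream footprints at bases 1 to 51 and 2 to 52 and inner ones at 84 to 119 and 86 to 127. The peak values were 22.8 in both replicates for the former and 16.8 and 16.5 for the latter.

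Wide lines were found again more often than shorter ones, which the overlap rule favours because a fixed shift costs a short line a larger share of its length. Of all lines of 30 bp or more, 93.2% in replicate 1 (6767 of 7259) and 74.0% in replicate 2 (9643 of 13030) met the overlap, beside 67.5% and 47.3% of the lines of 13 to 29 bp and 21.97% and 12.5% of those of 7 to 12 bp. Only 109 wide lines of replicate 1 (1.502%) and 770 of replicate 2 (5.91%) touched no line of the other library. The partner was itself at least 30 bp wide for 5380 wide footprints in each replicate, 79.5% of those of replicate 1 and 55.8% of those of replicate 2. The remaining partners were narrower, 1387 and 4263 of them. Merged over the replicates the wide footprints made 11029 loci, of which 5380 were wide in both, 1386 in replicate 1 alone and 4263 in replicate 2 alone.

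**Figure D1:**
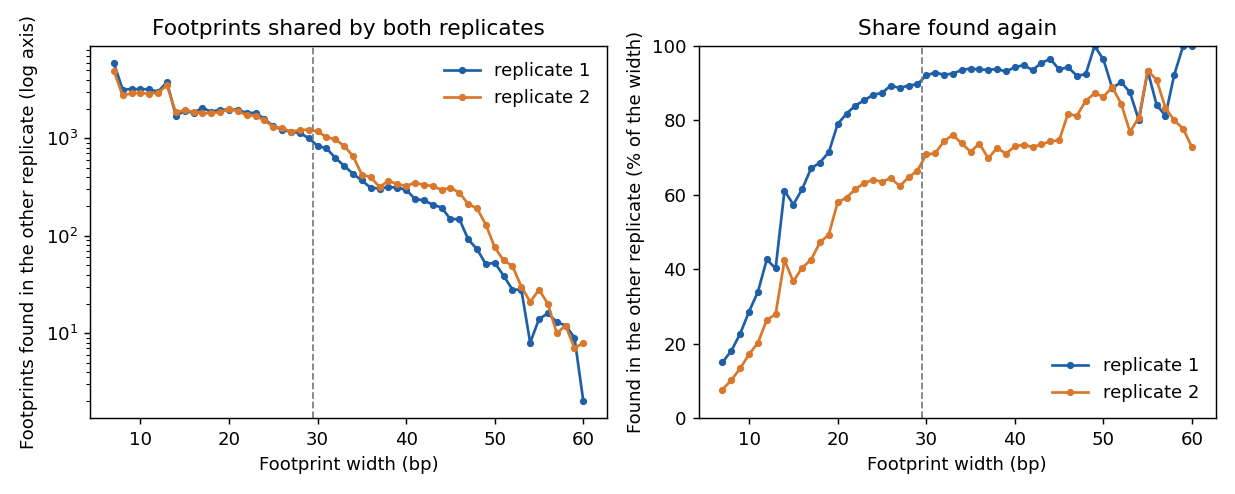
Footprints found in the other replicate by width, as a number on a log axis (left) and as a percentage of all lines of that width (right), for widths of 7 to 60 bp, with 1 point per width and replicate. The dashed line marks the 30 bp limit. Numbers drop from 13 to 14 bp, stay nearly level up to about 21 bp and then fall, with a shoulder near 40 to 46 bp. The share found again in replicate 1 rises to over 90% at 30 bp.

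The median width was 35 bp in both replicates, with quartiles of 32 and 40 bp in replicate 1 and 32 and 42 bp in replicate 2, and the widest line was 82 bp and 99 bp. Lines of 30 to 34 bp were 47.6% and 48.6% of the wide footprints, those of 45 to 49 bp 7.58% and 11.6%, and 28 and 47 lines reached 60 bp. The 5380 loci that were wide in both were kept by an overlap rule that itself favours similar limits, so their agreement is only described. Widths were within 2 bp of each other at 3027 (56.3%), and both limits were identical at 534 (9.93%). The median difference, replicate 1 minus replicate 2, was -1 bp with quartiles of -3 and 1 bp and extremes of -46 and 25 bp. Nothing changed abruptly at the width limit. Shared lines of 29 bp (1009 and 1231) lay in peaks with a median value of 4.18 in replicate 1 and 2.94 in replicate 2, and wide footprints of 30 bp (837 and 1179) in peaks of 4.53 and 3.02, with a CTCF core in 17.6% and 19.1% of the former and 18.8% and 20.8% of the latter. At the overlap limit, 97 and 428 wide lines had an overlap of 45 to under 50% and 186 and 659 one of 50 to under 55%.

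Nearly all wide footprints lay in called peaks, and these were strong ones. The deposited peak value is a signal whose scale the sources leave unnamed, and every peak value was a whole multiple of 1 step per library. Divided by that step, the peaks of wide footprints held a median of 562 counts in replicate 1 and 702 in replicate 2. Peaks of the longer deposited list held 96.7% and 96.5% of the wide footprints, beside 84.0% and 85.6% of the narrow ones. The 224 and 337 wide footprints outside peaks lay a median of 32 and 31 bp from the nearest peak.

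The median peak value was 7.11 in replicate 1 (quartiles 2.89 and 12.6) and 4.24 in replicate 2 (2.00 and 8.82) for wide footprints, 3.59 and 3.02 for narrow ones, and 2.39 and 1.51 for all lines in peaks. The order against narrow footprints depended on which narrow lines were taken. Against narrow footprints of the peaks that also held a wide one, the ratio of the medians, wide to narrow, was 0.926 and 0.729, below 1, in place of 1.98 and 1.40. Against all deposited lines of 7 to 12 bp it was 4.01 and 3.73. All peaks were also split by value into 5 groups of equal size. Group 1, the lowest, held no wide footprint among 2702 and 10686 lines (upper limit 0.142% and 0.0359%), group 2 held 3 and 27, and group 5, the highest, held 5164 and 6735. The share of footprint lines that were wide and shared was 0.0273% and 0.114% in group 2, 3.71% and 4.77% in group 4 and 7.92% and 9.06% in group 5. Of the peaks of group 5, 28.2% and 37.5% held a wide footprint. The counts behind a peak are higher where its value is higher, and their part in these shares was not tested.

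Most peaks with a wide footprint had 1 of them (4886 and 7060 peaks), and 682 and 900 had 2, with a maximum of 4. The median peak value was 0.797 and 0.670 for peaks with none, 4.84 and 2.92 with 1, 12.3 and 9.32 with 2, and 16.8 and 12.8 with 3 or more. Neighbouring wide footprints of 1 peak had midpoints a median of 77.5 bp apart in replicate 1 (879 pairs, quartiles 68.3 and 92.0) and 76.5 bp in replicate 2 (1200 pairs, quartiles 68.9 and 89.5). Wide footprints sat near the middle of the peak, a median of 17 and 15 bp from its centre, where narrow ones were 53 and 57 bp away. Across the 10351 loci with a peak in both replicates, the log2 peak values of the replicates had a Pearson correlation of 0.961, with neighbouring loci sharing peaks, and replicate 2 had a median of 0.876 times the value of replicate 1.

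Promoters, taken as within 1 kb of any protein-coding transcript start in GENCODE M21, held 59.4% of the wide footprints of replicate 1 (4017, interval 58.2 to 60.5) and 50.7% of those of replicate 2 (4890, 49.7 to 51.7). Introns held 13.5% and 17.5%, intergenic DNA 24.7% and 28.7%, and exons 2.41% and 3.10%. Narrow footprints of both replicates had promoter shares of 61.7% and 61.4%, intron shares of 16.4% and 16.7% and intergenic shares of 19.5% and 19.6%. The promoter share of wide footprints was thus 2.37 and 10.7 percentage points lower than that of narrow ones. Against all lines of 7 to 12 bp, shared or not, the sign differed between the replicates, with a share 13.01 points higher in replicate 1 and 3.21 points lower in replicate 2. Averaged with equal weight over groups 3 to 5 of peak value, the difference from narrow footprints was -13.8 and -16.5 points. In group 5, which held most wide footprints, the promoter share was 71.2% and 65.2% for wide and 75.8% and 81.6% for narrow ones. Over all footprint lines the promoter share was 50.5% and 55.5%, so that wide footprints were above it in replicate 1 and below it in replicate 2, and the intergenic share was 24.7% and 22.7%, the former equal to that of wide footprints at this rounding.

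**Figure D2:**
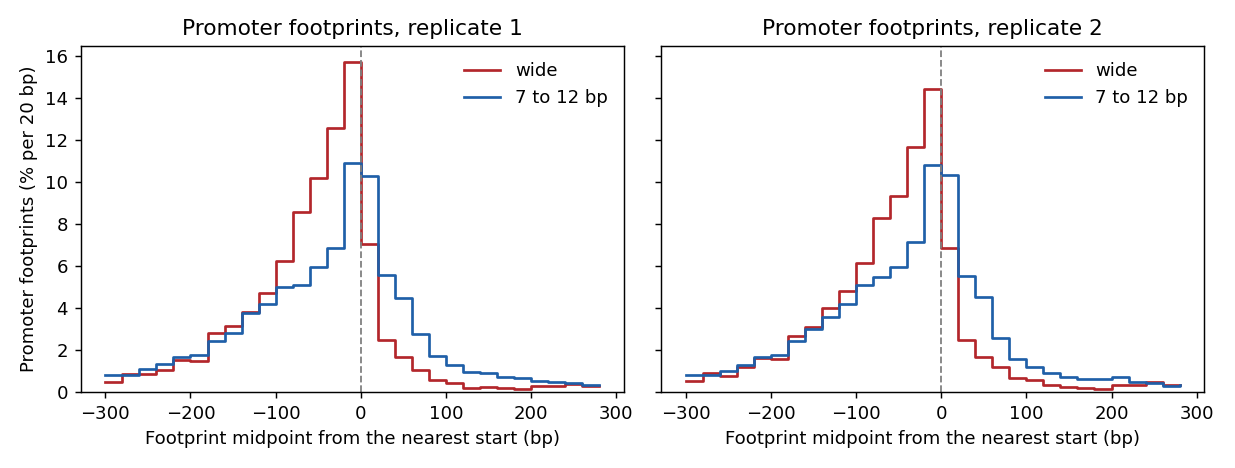
Position of wide and narrow footprints around the nearest protein-coding transcript start, as a percentage of the promoter footprints of each kind per 20 bp, by replicate. Negative positions are upstream, and the dashed line marks the start. Wide footprints are more frequent than narrow ones from 100 bp upstream up to the start and less frequent in the 100 bp after it.

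Within promoters the wide footprints lay upstream of the start. Their midpoint was upstream in 80.6% of 4017 in replicate 1 (79.4 to 81.8) and 78.8% of 4890 in replicate 2 (77.6 to 79.9), beside 62.3% and 62.9% of narrow promoter footprints. The stretch from 20 to 100 bp upstream, where many general activators of promoters bind, held 38.3% and 35.97% of the wide and 23.4% and 24.1% of the narrow ones. The median position was -45 and -46 bp for wide and -24 and -26 bp for narrow footprints. Peaks of wide promoter footprints had a median value of 10.9 and 8.34, and those of wide footprints elsewhere, called distal here, 2.73 and 2.16. The same medians for narrow footprints were 5.95 and 5.25 in promoters and 1.89 and 1.31 elsewhere.

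Motifs were searched on both strands in the 40 bp centred on each footprint, so wide and narrow footprints were searched over equal lengths, and in all 40-bp tiles of the peaks. Among distal wide footprints the CTCF core was the leading match. It was present in 616 of 2750 in replicate 1 (22.4%) and 1275 of 4753 in replicate 2 (26.8%), beside 1.28% and 1.21% of distal narrow footprints and 1.90% and 1.65% of distal tiles. Over all classes the share was 19.2 and 29.95 times that of narrow footprints, and 9.27 and 38.7 times that of all lines of 7 to 12 bp. With 1 mismatch allowed, a setting chosen after the data were seen, 57.1% and 64.1% of distal wide footprints matched, beside 4.68% and 4.01% of the narrow ones and 5.49% and 4.62% of tiles. In promoters the same relaxed core was in 8.31% and 10.9% of wide and 0.759% and 0.673% of narrow footprints. Distal wide footprints with the relaxed core lay a median of 6 and 6.5 bp from the peak centre, in peaks with a median value of 2.30 in replicate 1 (1571 footprints) and 1.93 in replicate 2 (3045). Distal wide footprints with neither that core nor a tRNA gene (1007 and 1514) lay in peaks of 3.78 and 2.66.

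**Figure D3:**
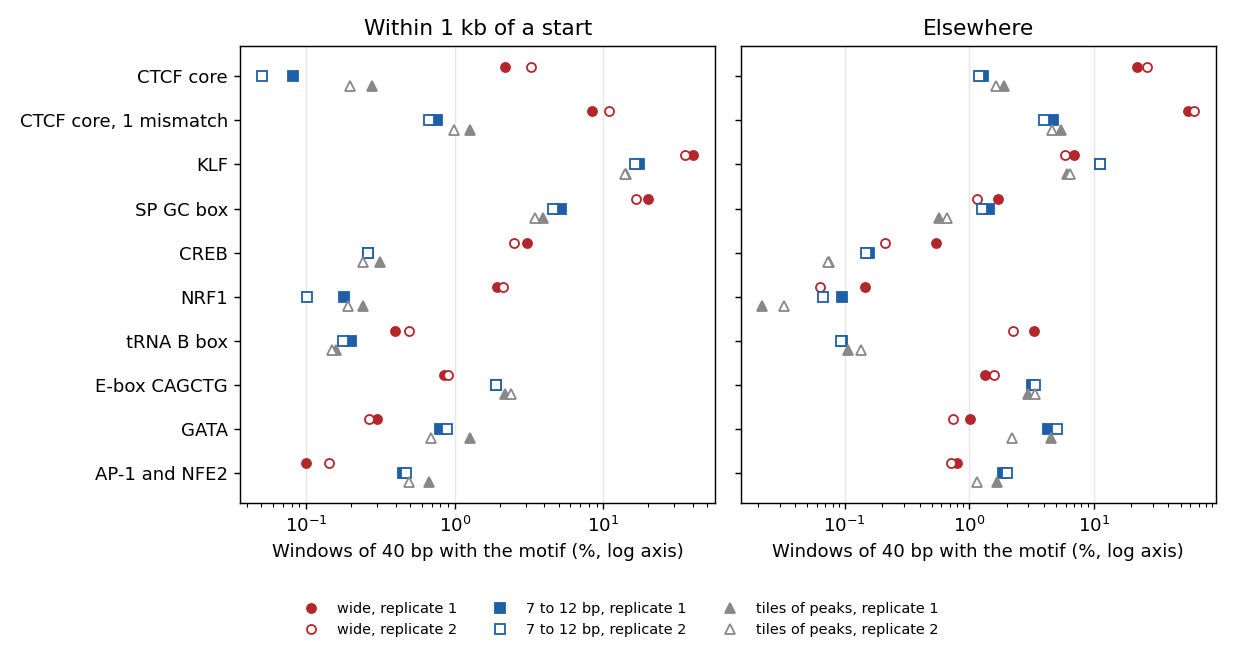
Percentage of 40-bp windows that hold each of 10 motifs, on a log axis, within 1 kb of a start (left) and elsewhere (right), for wide footprints (circles), narrow footprints of 7 to 12 bp (squares) and tiles of all peaks (triangles), with filled symbols for replicate 1 and open ones for replicate 2. In the left panel the CTCF, KLF, GC box, CREB, NRF1 and B box circles lie above the squares and triangles. In the right panel the CTCF, CREB and B box circles do in both replicates. GATA and AP-1 circles lie below the squares in both panels.

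The strict CTCF core was most frequent at 25 to 34 bp. Among distal shared footprints the core was in 28.8% and 28.1% of those of 25 to 29 bp, in 28.7% and 33.4% of those of 30 to 34 bp, in 16.6% and 22.4% at 35 to 39 bp, in 18.9% and 19.9% at 40 to 44 bp, and in 10% (33 of 330) and 17.7% at 45 bp or more. The relaxed core varied less up to 49 bp, with 64.7% and 69.8% at 30 to 34 bp, 46.6% and 53.1% at 35 to 39 bp, 59.4% and 62.9% at 40 to 44 bp and 51.7% and 65.6% at 45 to 49 bp, and was in 7.29% and 18.9% at 50 bp or more. Wide footprints with the core inside their limits numbered 701 in replicate 1, with the core on the plus strand in 333 and the minus strand in 368, and 1431 in replicate 2, with 707 and 724. On the 5′ side of the core the footprint limit fell at 5 or 6 bp in 145 and 144 lines of replicate 1 and in 322 and 331 of replicate 2. A separate group had its limit 21 to 23 bp before the core, with 42, 41 and 31 lines at these distances in replicate 1 and 74, 102 and 93 in replicate 2. On the 3′ side there was 1 peak, with a median of 13 bp in both. The 30 bp limit enters this value, since a line that begins 5 or 6 bp before the core needs a longer 3′ side to be kept. Shared footprints of 20 to 29 bp with the core had a 3′ median of 9 and 10 bp. Wide ones that reached at least 15 bp upstream also had 9 and 10 bp, and the other wide ones 14 bp in both.

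Footprints that reached at least 15 bp upstream were 216 (30.8%) in replicate 1 and 419 (29.3%) in replicate 2, with a median width of 42 and 44 bp in place of 31 and 32 bp for the others. The upstream element (TGCANT), beginning 15 to 19 bp before the core, was in 25.5% (55 of 216) and 21% (88 of 419) of the reaching footprints and in 1.86% (9 of 485) and 1.78% (18 of 1012) of the others. It began exactly 17 bp before the core in 51 and 81 of the reaching lines. The 6 CTCF loci printed above show both kinds, and the 3 long ones were chosen to hold the element, which most reaching footprints lacked. This element was added to the search after the data were seen, and shared footprints of 20 to 29 bp with the core had it in 4.13% and 3.49%.

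**Figure D4:**
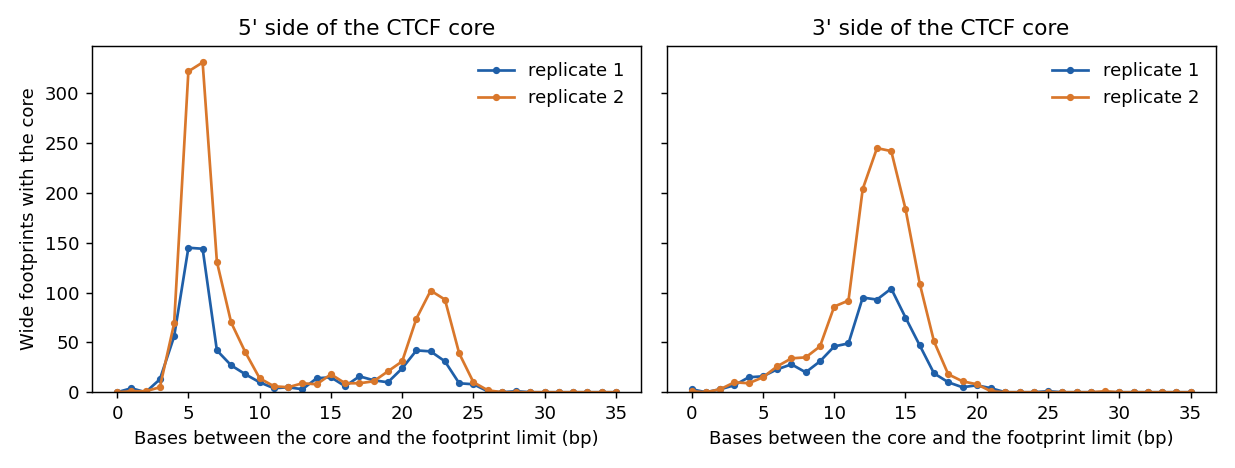
Number of wide footprints by the distance in bp from the CTCF core to the footprint limit on the 5′ side (left) and the 3′ side (right) of the core, for each replicate. The 5′ side has a high peak at 5 to 6 bp and a lower one at 21 to 23 bp, and the 3′ side has 1 peak at 12 to 15 bp. The 30 bp limit enters the 3′ position.

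Promoter wide footprints were led by GC-rich motifs. The KLF motif (CCNCNCCC) was in 1620 of 4017 in replicate 1 (40.3%, 38.8 to 41.9) and 1735 of 4890 in replicate 2 (35.5%, 34.2 to 36.8), beside 17.2% and 16.4% of narrow promoter footprints and 14.1% and 13.9% of promoter tiles. The SP GC box (GGGGCGGG), which can overlap the KLF motif, was in 19.8% and 16.6% of wide, 5.16% and 4.58% of narrow footprints and 3.91% and 3.45% of tiles. Neither motif was particular to wide lines. Shared promoter footprints of 20 to 24 bp had the KLF motif in 37.8% and 39.1% and the GC box in 16.3% and 17.9%. At least 2 KLF or GC boxes stood in the same 40 bp in 14.3% and 12.3% of wide and 1.85% and 1.71% of narrow promoter footprints. The windows of wide footprints were richer in G and C, with a median of 65% and 62.5% beside 60% in both libraries for narrow ones, and the part of this in the GC box shares was not tested. Outside promoters the KLF motif went the other way, with 6.91% and 5.89% of wide and 11.3% in both libraries of narrow footprints.

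CREB, NRF1, ZBTB33 and ZNF143 sites were also more frequent in wide than in narrow promoter footprints. The CREB palindrome (TGACGTCA), bound by the cAMP-responsive CREB and ATF factors, was in 3.06% and 2.52% of wide and 0.261% in both libraries of narrow promoter footprints, with 0.315% and 0.243% of tiles. The site of NRF1, an activator of nuclear genes for mitochondrial proteins, was in 1.92% and 2.11% of wide and 0.179% and 0.101% of narrow ones. Shared promoter footprints of 20 to 24 bp had the NRF1 site in 2.67% and 2.84%, above the wide ones, and the CREB palindrome in 1.72% and 1.60%, below them. The ZBTB33 site (TCTCGCGAG) was in 0.722% and 0.573% beside 0.156% and 0.135%. For ZNF143, a zinc finger activator, the shares were 0.846% and 0.736% beside 0.394% and 0.446%. ETS sites (CCGGAAG) were in 3.16% (2.66 to 3.75) and 3.25% (2.79 to 3.79) of wide and 3.29% and 3.39% of narrow promoter footprints, a difference within the intervals, and CCAAT boxes of NFY (CCAATNNG) had 3.71% and 3.91% beside 3.27% in both libraries.

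GATA, AP-1 and CAGCTG motifs, which factors of red cell development bind, were rarer in wide than in narrow distal footprints. The GATA motif (AGATAA) was in 28 distal wide footprints of replicate 1 (1.02%, 0.705 to 1.47) and 35 of replicate 2 (0.736%, 0.530 to 1.02), beside 4.29% and 5.09% of distal narrow footprints and 4.58% and 2.198% of distal tiles. Over all classes the GATA share of wide footprints was 0.277 and 0.198 times that of narrow ones, and 0.918 and 0.563 times that of narrow footprints in the peaks that also held a wide one. A GATA motif next to part of an E-box, the arrangement of the GATA1 and TAL1 complex, was in 0.509% and 0.379% of wide and 1.64% and 2.36% of narrow distal footprints. The shares of the AP-1 and NFE2 motif (TGANTCA) were 0.800% and 0.715% beside 1.89% and 2.02%, and those of the E-box CAGCTG 1.35% and 1.58% beside 3.18% and 3.38%. The E-box CAGATG, by contrast, was in 4.47% and 4.92% of wide and 3.31% and 3.32% of narrow distal footprints. Motifs of hepatocyte factors had few matches. FOXA (TGTTTAC) was in 2 and 3 distal wide footprints (0.0727% and 0.0631%), beside 0.348% and 0.402% of narrow ones and 0.452% and 0.406% of tiles. HNF4 (CAAAGTCCA) was in 1 and 4 (0.0364% and 0.0842%), beside 0.0360% and 0.0268% of narrow ones and 0.0466% and 0.0492% of tiles. The HNF1 pattern had no match in any footprint or tile, so the search says nothing about it. The 31 motifs, the relaxed CTCF core and tRNA genes left 25.6% and 23.4% of distal wide footprints without a match, and the 31 motifs with the relaxed core left 38.4% and 40.9% of promoter ones.

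tRNA genes were a recurrent place of wide footprints. Of 403 RefSeq tRNA genes, 153 in replicate 1 (37.97%) and 174 in replicate 2 (43.2%) overlapped a wide footprint, 141 of them in both, whereas 33 and 28 overlapped a narrow one. Of the genes that lay in a peak, 152 of 262 (58.0%) and 170 of 255 (66.7%) did. Wide footprints overlapping a tRNA gene numbered 203 of 6767 and 236 of 9643 (2.45%), beside 34 (0.156%) and 29 (0.150%) narrow ones. Their peaks had a median value of 7.35 and 6.08.

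The footprints lay at 2 places. A midpoint 40 to 11 bp upstream of the gene's 5′ end occurred at 152 and 147 genes, where TFIIIB is known to sit, and a midpoint 40 to 79 bp inside, around the B box, at 129 and 156 genes. Both places were occupied at 96 genes in replicate 1 and 103 in replicate 2, and at 81 genes in both replicates. Upstream footprints had a median width of 47.5 and 51 bp and inner ones 36 and 37 bp. The B box was in the 40-bp window of 80.6% (104 of 129) and 78.8% (123 of 156) of the inner footprints. The windows of the upstream footprints do not reach that part of the gene. Conversely 105 of 108 and 124 of 132 wide footprints with that B box lay in annotated tRNA genes. The B box was added to the search after the data were seen.

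**Figure D5:**
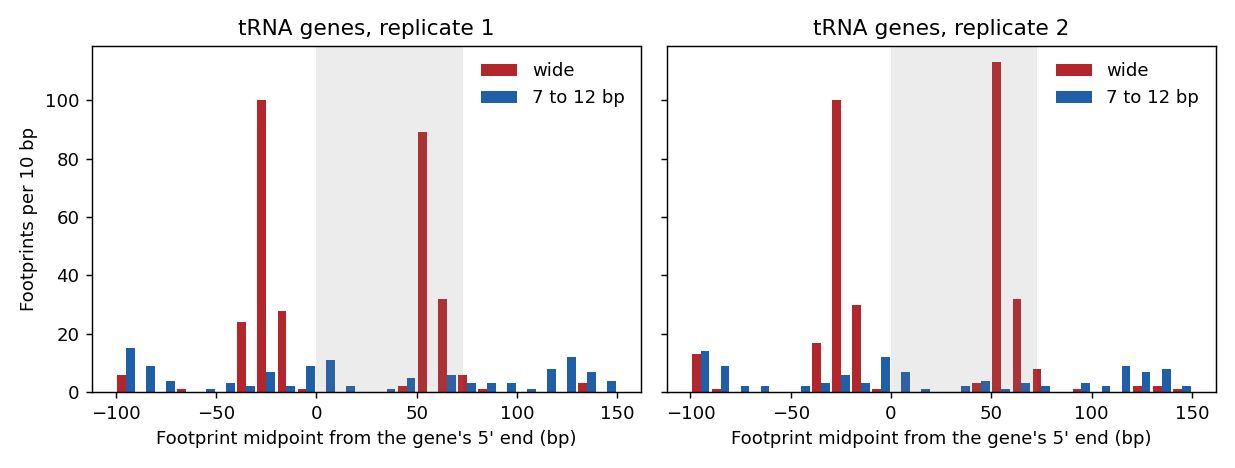
Number of wide (red) and narrow (blue) footprints per 10 bp around the 5′ ends of RefSeq tRNA genes, by replicate. Negative positions are upstream, and the shading covers the median gene length of 73 bp. Wide footprints stand at 2 places, 40 to 11 bp upstream and 40 to 79 bp inside the gene, and narrow ones at neither in such numbers.

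In at least 1 replicate 186 of the 403 tRNA genes (46.2%) overlapped a wide footprint, whatever its place. By amino acid, the highest shares were 6 of 7 for phenylalanine, 18 of 22 for serine, 7 of 10 for tyrosine and 11 of 16 for aspartate, and the lowest 5 of 57 for cysteine, 2 of 11 for histidine and 10 of 33 for alanine. These products are the extremes, and their differences were not tested. Identical gene copies limit this count, since the central 31-base word of the footprint occurred more than 1 time in the assembly for 45.8% and 49.2% of the wide footprints in tRNA genes, beside 3.62% and 3.46% of all wide footprints. The part of reads placed at other copies was not tested. Among the widest distal footprints these genes were prominent: 47 of 96 in replicate 1 (48.96%) and 67 of 159 in replicate 2 (42.1%) of those of 50 bp or more lay at a tRNA gene.

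Soft-masked repeat bases touched 15.04% and 15.4% of wide footprints and 10.5% and 10.3% of narrow ones, a comparison that longer lines enter with more bases. Wholly masked lines were rarer among the wide (2.05% and 2.07%) than the narrow (6.32% and 6.12%). The central 31-base word occurred 10 or more times in the assembly for 61 wide footprints of replicate 1 (0.901%) and 82 of replicate 2 (0.850%), beside 0.377% and 0.372% of narrow ones and 0.622% and 0.814% of all lines. In replicate 2 the share of all lines lay within the interval of the wide share (0.686 to 1.05).

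The widest loci were a mixture of promoters, tRNA genes and copied sequence. Loci of at least 50 bp in both replicates numbered 172, of which 99 were in promoters, 39 were distal at tRNA genes and none was distal with a CTCF core, whereas 27 of the 275 distal loci of at least 45 bp had one. Ranked by the narrower of its 2 lines, the widest locus lay at chr14:104715795-104715878, in an intergenic stretch, with widths of 82 and 84 bp and peak values of 7.77 and 8.28, and its central word occurred 12 times in the assembly. The promoters of Dcaf7, a scaffold protein gene, and Chaf1b, a subunit of the chromatin assembly factor CAF-1, followed with widths of 78 and 78 bp and of 76 and 75 bp. Dcaf7 lay outside the called peaks of replicate 1 and in a peak of 14.8 in replicate 2, and Chaf1b had 18.9 and 17.97. The start of Zmynd8, a chromatin reader gene, had widths of 72 and 72 bp with a CCAAT box in both lines and values of 16.5 and 11.9. The histone gene Hist2h2aa2 had widths of 65 and 65 bp and values of 20.2 and 19.7. A wholly masked locus at chr9:3029783-3029855, within 1 kb of the predicted gene Gm10717, had widths of 68 and 73 bp, values of 2.78 and 5.64, and a central word that occurred 100 and 87 times. The printed runs show the widest promoter locus in that ranking and a further one at Crls1, the cardiolipin synthase gene (widths 63 and 62 bp, values 13.7 and 14.5), which hold no capitals because no motif is marked.
Dcaf7 promoter, chr11:106036660-106036737, plus strand: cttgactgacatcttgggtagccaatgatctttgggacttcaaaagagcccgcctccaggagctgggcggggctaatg
Crls1 promoter, chr2:132846581-132846644, plus strand: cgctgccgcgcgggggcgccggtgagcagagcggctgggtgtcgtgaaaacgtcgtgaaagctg

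Pairs of the widest or highest loci shared long runs of sequence, in capitals below, although they lie on different chromosomes. The first pair shared 31 bases and the second 42, on opposite strands of the reference.
Intergenic, nearest start Foxn3, chr12:99645577-99645655, plus strand: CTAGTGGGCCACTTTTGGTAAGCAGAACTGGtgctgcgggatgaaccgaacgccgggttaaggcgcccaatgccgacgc
Intergenic, nearest start Rnf219, chr14:104715795-104715878, minus strand: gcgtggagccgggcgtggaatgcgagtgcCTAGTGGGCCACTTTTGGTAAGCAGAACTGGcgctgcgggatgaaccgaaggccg
Intron of Zc3h7a, chr16:11144244-11144287, plus strand: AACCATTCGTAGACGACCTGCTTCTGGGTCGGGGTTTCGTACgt
Intron of Peak1, chr9:56223580-56223652, minus strand: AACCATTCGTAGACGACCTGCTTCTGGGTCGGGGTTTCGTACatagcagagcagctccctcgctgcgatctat
Both loci of each pair were wide footprints in both replicates. The intron of Zc3h7a, with widths of 44 and 43 bp and a central word found 4 times, had peak values of 63.0 and 51.6, among the highest of all loci, and that of Peak1 had widths of 73 and 73 bp and values of 8.35 and 7.17. The intergenic locus nearest to Foxn3 had values of 3.95 and 3.63.

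Ranked by the lower of both replicates, the 10 loci with the highest peak values lay in 4 peaks, including the one in the intron of Zc3h7a. A peak on chromosome 6 with values of 75.6 (Poisson interval of its counts 73.7 to 77.5) and 51.8 (50.7 to 52.9) held 3 loci at chr6:49236404-49236453, chr6:49236510-49236543 and chr6:49236616-49236669, the first with an AP-1 and NFE2 motif. A peak on the X chromosome with values of 63.0 and 62.3 held 3 at chrX:143482954-143483005, chrX:143483042-143483075 and chrX:143483109-143483156. A peak in an intron of Il31ra, with values of 51.8 and 39.9, held 3 loci whose central words occurred 1, 2 and 7 times in the assembly. Below these in value, chr8:20424816-20424853 with a CCAAT box had widths of 38 and 38 bp and values of 37.1 and 36.3. In the same ranking the highest CTCF locus lay at chr7:73618503-73618549, with widths of 46 and 45 bp and values of 18.1 and 17.1, and the highest NRF1 locus was that of Sltm (22.8 and 21.6).

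At genes, 4781 of 21938 protein-coding genes (21.8%) had a wide footprint locus within 1 kb of a transcript start, which was 37.0% of the 12909 genes with a peak there in both replicates. Narrow footprints in both replicates marked 6868 genes (31.3%). A single locus was found at 3236 genes, 2 at 1177 and 3 or more at 368. These shares are the background of the list counts, and a locus between 2 starts counts for both genes. Of housekeeping and translation genes 14 of 20 had a locus, all 20 with a peak in both, among them Actb (42 and 41 bp, peak values 18.02 and 16.4), Rplp0 of the ribosomal stalk (37 and 42 bp, 21.8 and 18.2) and Ppia, the cyclophilin A gene (53 and 56 bp, 16.8 and 14.5). Of CTCF, cohesin and chromatin genes 13 of 18 had one, all 18 with a peak, including Smc3 of the cohesin ring with 4 loci (the highest 44 and 38 bp, 16.6 and 13.3) and Zfp143 with 3 (31 and 33 bp, 20.9 and 16.8). Of cell cycle genes 10 of 22 had one, with Mcm2 of the replicative helicase at 44 and 43 bp in peaks of 11.1 and 11.7.

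Erythroid lists were counted against the same backgrounds, without a test. Wide loci marked 7 of 18 erythroid transcription factor genes, 17 of which had a peak in both, 6 of 24 red cell membrane and receptor genes and 11 of 24 heme and iron genes, with 24 and 21 of those in peaks. Zfpm1, whose product is the GATA1 partner FOG1, had a locus of 33 and 34 bp with a KLF motif in peaks of 19.1 and 16.3. Lyl1, Nfe2, Slc4a1 and the globin genes are named as known red cell or blood genes, chosen after their values were seen. Lyl1, a helix-loop-helix factor of blood cells, had one of 55 and 55 bp with a GATA motif, 17.3 and 9.62, and Nfe2 one that was wide in replicate 2 only (17 and 31 bp, 5.49 and 4.32). The remaining erythroid factors with a locus were Bach1, Gfi1b, Tcf3 and Zbtb7a, and the promoters of Gata1, Tal1 and Klf1 had none. The widest of the red cell group was at Epb41, the gene of a membrane skeleton protein, where it overlaps an exon of Gm10300, with 64 and 61 bp and values of 28.9 and 20.5. Slc4a1, the band 3 anion exchanger gene, had a line of 36 bp in replicate 1 with a GATA motif and both E-boxes, in a peak of 7.25, and its partner of 24 bp in replicate 2 lay outside the called peaks.

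Heme and iron genes with a locus included Fech, the ferrochelatase gene (33 and 35 bp, 13.9 and 12.1) and Fth1 of the ferritin shell (32 and 36 bp, 17.2 and 11.4). Ireb2, the gene of the iron regulatory protein IRP2, had a ZBTB33 site in a locus of 41 and 23 bp. Among 9 globin genes, 3 had a locus and 5 a peak in both, with Hbq1b at 44 and 46 bp in peaks of 6.54 and 5.69, Hbq1a at 43 and 43 bp (4.18 and 3.85) and Hbb-bt at 20 and 33 bp (4.54 and 2.47). The central word of the Hbq1b locus occurred 2 times in the assembly, and the part of this in its peak value was not tested.

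Genes of the other cell types of the liver had few or none. None of 28 hepatoblast genes had a wide locus although 13 had a peak in both, and none of 20 endothelial and mesenchymal genes, 7 of them in peaks. Of 12 megakaryocyte and mast cell genes Itga2b, Nbeal2 and Vwf had one, with 4 in peaks. Of 16 neural and muscle genes Ckm, Gfap and Syp had one, with 8 in peaks. Those at Ckm and Gfap contained the CTCF core in both lines. The tissue label was checked on the peaks themselves. All 6 red cell markers had a peak within 1 kb of a start in both replicates, from 3.24 and 2.10 at Gata1 to 16.5 and 9.28 at Epor. Among 5 hepatoblast markers, Foxa3 had 12.0 and 7.93, Afp had 1.40 and 1.42, and Trf had 1.00 and 1.07. Alb had 0.367 in replicate 1 and no peak in replicate 2, and Hnf4a had no peak in replicate 1 and 0.404 in replicate 2. Of the endothelial markers, Kdr had 0.924 and 1.09, Cdh5 had 0.405 in replicate 1 alone and Emcn had no peak. In the same check the 3 macrophage markers had no peak, and of the absent tissues Myod1 and Neurod1 had none while Pax6 had 1.46 and 0.851. Fewer cells of a type and less open chromatin per cell cannot be told apart in these bulk samples.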

How the data were processed

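DNase-seq libraries of 2 replicates of embryonic liver were used. Deposited notes say that the authors derived peaks, cut-rate FDR values and footprints on mm10 from the filtered alignment of each library separately. The sources used here name no aligner, caller or version. The deposited footprint lists carry the value 0.01 in every line, read here as the FDR threshold of the list, and the deposited FDR cut-rate lists were not used for the results. The deposited peak signal has no stated normalization. Within each library it is a whole multiple of 1 step in 100% of peaks (tolerance 0.05 of a step), and dividing by that step gave the counts for the Poisson intervals. The total number of reads per library was not analysed here.

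Overlaps, genomic classes (GENCODE M21), RefSeq tRNA genes, motif matches and counts of 31-base words over 21 chromosomes were computed in Python 3.11.15 with numpy 2.4.6, pandas 2.3.3 and scipy 1.17.1, and tested on simulated data. A line was classed as promoter if its edge lay within 1 kb of a start, and otherwise as exon or intron by any overlapping base. Longer lines meet these rules slightly more easily than short ones. Overlapping wide footprints of the replicates were merged into loci. Named loci were the 10 widest and the 10 with the highest lower-of-both peak value, loci at promoters of listed genes (up to 25) and the top locus of each of 31 motifs. Other named loci, and those whose sequence is printed, were chosen after their values were seen. Printed sequences are from the GRCm38 reference, without exons and, outside the pairs with a shared run, with a central word that occurs 1 time. Members, 12 gene lists and motifs were chosen with earlier results of these data known. Some results of the gene lists are not reported here. With 1 group there was no test. Alternatives changed the overlap, width, partner, peak list, promoter definition, motif window, repeats and the narrow set.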

Additional observations from a re-analysis of the deposited data

How the results depend on the processing

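Values here are means of the 2 replicates. No paired analysis was possible because the results are counts and shares of lines within 1 group and come from no test. Of the alternative values 54 stayed within the spread between replicates or, for counts, within 1.5 times, 34 went further and 3 changed direction. The 8205 wide footprints per replicate became 5380 with a partner of at least 30 bp, 14250 from 25 bp and 4253 from 35 bp. With 1 replicate left out and no overlap required, they ranged from 7259 to 13030, the promoter share (55.04%) from 47.14% to 59.1%, the peak value (5.675) from 3.35 to 6.923, the GC box share (10.71%) from 7.759% to 12.27%, the GATA share (0.5444%) from 0.4758% to 1.033% and the repeat share (15.23%) from 15.22% to 18.11%. The promoter share was 61.35% with a 2.5 kb window and 47.77% with gene 5′ ends. The CTCF core (12.62%) fell to 8.64% from 35 bp and was 32.62% with 1 mismatch. GATA was 0.4647% with a wide partner, 0.6775% from 25 bp, 0.4432% without masked bases and 0.8943% in 60 bp. The repeat share was 14.36% at 80% overlap, 13.71% from 25 bp, 17.99% from 35 bp, 14.88% in the shorter peak list and 14.23% where the central word occurs 1 time. Against narrow footprints, the promoter difference of -6.541 points turned to 4.901 against all lines of 7 to 12 bp and ranged from -6.785 to 12.75 with 1 replicate left out. Its unweighted mean over groups 3 to 5 of peak value was -15.13. The peak value ratio of 1.69 was 3.874 against all lines, turned to 0.8274 within shared peaks, was 1.174 within groups of peak value and ranged from 2.952 to 3.907. The CTCF ratio of 24.56 was 23.99 against all lines (9.271 and 38.72 by replicate) and ranged from 8.901 to 36.77 with 1 replicate left out. It was 170.3 within shared peaks, where a narrow line cannot be centred on a core that a wide line covers. Its unweighted mean over groups 3 to 5 of peak value was 136.6, with the core in only 3 narrow lines of group 5 in each replicate. The GATA ratio of 0.2377 was 0.7405 within shared peaks and ranged from 0.245 to 0.3197. The cause of these changes was not tested. The 1-mismatch core, the B box, the upstream element and the central-word filter were added after seeing the data.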
